A study of Mus musculus with 12 samples.

Results

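Genes for the serine proteases that act at the epithelial cell surface, and for the inhibitors that restrain them, were examined in mpkCCD cells. The 10 genes were taken by name from the deposited expression values: Prss8, St14, Tmprss2, Tmprss4, Prss22, Furin, Prss23, Prss35, Spint1 and Spint2. Each matched exactly 1 of the 52015 genes used, by its symbol. mpkCCD is a mouse line of cortical collecting duct cells with principal cell origin, from which 12 RNA-seq libraries were made. Scr_300 and Scr_600 (2 libraries each) are cells transduced with a scramble guide RNA that targets no gene, cultured for 5 days at 300 mosmol/kg (isotonic) or at 600 mosmol/kg (hypertonic). Nfat5-KO_300 and Nfat5-KO_600 (4 libraries each) are cells in which Nfat5, the transcription factor of the hypertonic response, was deleted by CRISPR/Cas9, kept in the same media. The knockout libraries come from 2 clones, N1 and N3, so that a property of a clone and an effect of the deletion cannot be told apart in their values. The hypertonic medium held an additional 100 mM NaCl and 100 mM urea, and all cells grew on plastic.

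The epithelial sodium channel ENaC, through which principal cells reabsorb sodium, is activated when its alpha and gamma subunits are cut. Furin cuts them in the secretory pathway, and surface proteases such as prostasin (Prss8) complete the release of the inhibitory tract of the gamma subunit. Prostasin and matriptase (St14) act together at the surface of many epithelia, and both are held in check by the Kunitz-type membrane inhibitors HAI-1 (Spint1) and HAI-2 (Spint2).

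The deposited values give 1 FPKM value (fragments scaled to gene length and to the mapped fragments of the library) for each gene and group, with the libraries of a group already combined. There is therefore no spread between replicates, no p-value was calculated, and none of the differences below has a replicate check here. The authors tested differential expression on replicate libraries. They name Prss35 among genes upregulated by hypertonicity in both genotypes, with a lower level in the knockout. Sequencing depth is not known for any library. Differences are given as log2 ratios of FPKM + 0.1, for genes that reached 0.5 FPKM in 1 or both groups of a comparison, and a gene was counted as different at 2-fold or more. Nfat5 itself had 5.61 FPKM in Scr_300, 7.93 in Scr_600, 3.47 in Nfat5-KO_300 and 6.88 in Nfat5-KO_600, so that its transcript was still detected in the knockout groups. An RNA level alone does not check a CRISPR/Cas9 deletion. Of 13 principal cell markers 6 reached 0.5 FPKM in some group. Aqp2, the vasopressin-regulated water channel, reached 0.245 FPKM at most, while the transcription factor Tfcp2l1 had 25.1 to 53.4 FPKM. Of the 8 intercalated cell markers 1 reached 0.5 FPKM, and Foxi1 and Atp6v0d2 were listed at 0 in every group. In such bulk RNA, fewer cells with a transcript and less of it per cell cannot be told apart.

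Of the 10 genes, 9 had at least 0.5 FPKM in every group, and Prss35 only in the hypertonic groups. FPKM is scaled to gene length, so levels can be set side by side between genes. Spint2 had the highest level of the 10 in all 4 groups, at 68.4 FPKM in Scr_300, 95.6 in Scr_600, 61.3 in Nfat5-KO_300 and 69.8 in Nfat5-KO_600. St14 and Spint1 followed at 33.4 to 48.2 FPKM, and in each group these 3 genes lay at or above the percentile 88.2 of all genes with 0.5 FPKM or more. Prss8, Prss22, Tmprss2 and Furin lay between 7.77 and 18.1 FPKM. The remaining levels, and the lowest, were those of Tmprss4, Prss23 and Prss35, all below 4 FPKM. Without a spread between libraries, neighbours in this order such as Tmprss4 and Prss23 cannot be told apart.

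In the GRCm38 build the genes lie on 5 chromosomes, and their positions follow GENCODE. The epithelial proteases are St14 (chr9:31089402-31131853), Tmprss4 (chr9:45172726-45204092), Prss8 (chr7:127925716-127930104), Tmprss2 (chr16:97564682-97611195) and Prss22 (chr17:23993534-23998100), all on the minus strand. Furin (chr7:80388585-80405436) and Prss23 (chr7:89507783-89527187) also lie on the minus strand and Prss35 (chr9:86743649-86758443) on the plus strand. The inhibitor genes are Spint1 (chr2:119237362-119249527, plus strand) and Spint2 (chr7:29256323-29281912, minus strand). A gene on the opposite strand overlaps 5 of the 10, and whether reads were counted by strand is not given. The values of these partners were low beside those of the members, except that Kat8, which shares 122 bases with Prss8, had 5.35 to 6.75 FPKM. Tmprss4 shares 22086 bases with BC049352, which had at most 0.0103 FPKM.

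**Figure D1:**
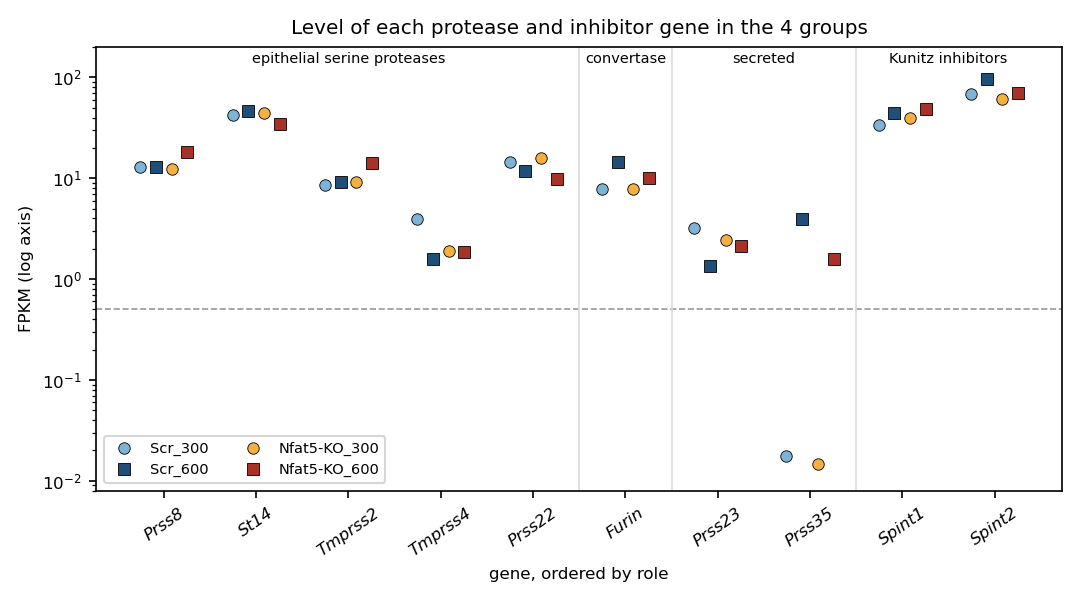
FPKM (log axis) of each gene in the 4 groups, with 1 point per group and no error bar because each value is the authors' group value. The dashed line marks 0.5 FPKM. Prss35 is the gene that crosses it, from 0.0177 to 3.91 FPKM in Scr cells and from 0.0146 to 1.57 FPKM in Nfat5-KO cells.

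Prss35, which encodes a secreted member of the family annotated as an inactive serine protease, differed most between the media. In Scr cells its level was 0.0177 FPKM under isotonic and 3.91 FPKM under hypertonic conditions. In Nfat5-KO cells it had 0.0146 FPKM at 300 mosmol/kg and 1.57 FPKM at 600 mosmol/kg. It was thus close to undetected in both isotonic groups and present in both hypertonic groups, with the lower hypertonic level in the knockout. The log2 ratio of the media was 5.09 in Scr cells, where 4 of 12929 genes had a higher one, and 3.87 in Nfat5-KO cells, where 5 of 12982 genes did. These ratios depend on the pseudocount because the isotonic values are so low. With 1 FPKM added they were 2.27 and 1.34, and with 0.01 FPKM 7.15 and 6.01. At 600 mosmol/kg the Prss35 level was 2.49-fold lower without Nfat5, a log2 ratio of -1.26 that did not reach 2-fold with 1 FPKM added.

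The sequences around the starts of Prss35 and Furin, the members with the highest ratio of the media in Scr cells, are shown because hypertonic regulation by NFAT5 is the subject of the experiment. The recognition core of NFAT proteins, TGGAAA, was searched on both strands. Each sequence runs 5′ to 3′ along the gene's strand from 250 bases before the RefSeq start to 30 bases after it (GRCm38.p6), in lower case with TGGAAA in capitals. Prss35 is at chr9:86743383-86743662 on the plus strand, and the upper start of the 2 listed for Furin at chr7:80405407-80405686 on the minus strand.
Prss35: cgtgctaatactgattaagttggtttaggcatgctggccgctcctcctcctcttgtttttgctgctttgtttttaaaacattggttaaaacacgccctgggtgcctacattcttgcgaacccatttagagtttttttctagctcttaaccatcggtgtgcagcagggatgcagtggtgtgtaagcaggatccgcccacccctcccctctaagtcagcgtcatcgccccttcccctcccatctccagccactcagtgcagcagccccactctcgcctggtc
Furin: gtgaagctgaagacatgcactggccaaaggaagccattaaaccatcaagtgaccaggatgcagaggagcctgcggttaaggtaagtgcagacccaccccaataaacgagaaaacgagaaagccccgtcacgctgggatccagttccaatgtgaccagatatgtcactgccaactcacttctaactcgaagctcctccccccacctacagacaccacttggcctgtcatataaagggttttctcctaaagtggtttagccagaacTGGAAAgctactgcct
The core did not occur in the Prss35 window. It occurred once in this Furin window, on the forward strand from base 15 after the start, and not in that of the other Furin start. Among all 32851 promoter windows of this length, 20.3% held it at least once. A match to 6 letters is a description and not a binding site, and its absence from 280 bases says nothing of more distant sequence. Of the 10 genes, 6 were in the promoter table. None of the single windows of Spint1, Spint2 and Tmprss2 held the core, and 2 of the 7 windows of Prss23 did.

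Isotonic Nfat5-KO and Scr cells had near-equal levels of most of these genes. Of the 9 genes compared, 1 was lower by 2-fold or more in Nfat5-KO_300 and 0 were higher, against 2.44% (lower) and 1.73% (higher) of all 12704 genes. The lower gene was Tmprss4, a transmembrane serine protease known to activate ENaC in expression systems, at 3.99 FPKM in Scr_300 but 1.90 FPKM without Nfat5. Its log2 ratio of -1.03 lay just past 2-fold and no longer passed with 1 FPKM added in place of 0.1, and the next largest difference was that of Prss23, with a log2 ratio of -0.39. For St14 the values were 44.8 FPKM (Nfat5-KO_300) and 42.0 FPKM (Scr_300), and the log2 ratio was 0.10. Prss8 had 12.4 and 13.0 FPKM, a log2 ratio of -0.08, and Furin had 7.77 and 7.80 FPKM. The median log2 ratio of the 9 genes was -0.0049, and that of all genes compared was -0.0015.

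Under hypertonic conditions the members differed between the genotypes in both directions. Of the 10 genes, 1 (Prss35) was lower by 2-fold or more in Nfat5-KO_600 and 0 were higher, against 3.68% and 3.76% of all 13063 genes. The median log2 ratio of the 10 genes was -0.08, with 5 higher and 5 lower in Nfat5-KO_600, and that of all genes was -0.02. The proteases Prss8 and Tmprss2 and the inhibitor Spint1 had their highest level of any group in Nfat5-KO_600. Prss8 had 18.1 FPKM there and 13.0 FPKM in Scr_600, a 1.39-fold difference. Tmprss2, a transmembrane protease of many epithelia, had 14.1 and 9.16 FPKM, a 1.54-fold difference. St14, by contrast, had its lowest level in Nfat5-KO_600, at 34.8 FPKM against 46.4 FPKM in Scr_600. The genotypes thus differed in opposite directions for Prss8 and St14, and the St14 to Prss8 ratio was 1.93 in Nfat5-KO_600, compared with 3.56 in Scr_600, 3.63 in Nfat5-KO_300 and 3.22 in Scr_300. The 13 principal cell markers summed to 34.8 FPKM in Scr_600 and to 100.4 FPKM in Nfat5-KO_600, mostly from Tfcp2l1 (25.1 and 53.4 FPKM) and Gata3 (4.33 and 30.0 FPKM). Of the 6 markers that could be compared, 4 were at least 2-fold higher in Nfat5-KO_600 and 1, the potassium channel gene Kcnj1, was lower, at 0.0740 FPKM against 0.725 FPKM in Scr_600. Aqp3 had a log2 ratio of 0.43, and the other 7 markers stayed below 0.5 FPKM in every group. The part of these markers in the differences was not tested. A difference under 2-fold between group values without a spread may lie within the variation between libraries.

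In Scr cells, Furin had 7.80 FPKM at 300 mosmol/kg and 14.6 FPKM at 600 mosmol/kg. Its log2 ratio of 0.90 was just short of 2-fold, which it passed when FPKM was divided by the column sum, and 5.64% of all genes had a higher one. In Nfat5-KO cells the step was smaller, from 7.77 to 10.1 FPKM, a log2 ratio of 0.37. The isotonic levels of Furin were nearly the same in both genotypes, and in the hypertonic groups the log2 ratio of the genotypes was -0.53.

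The response to 600 mosmol/kg in Scr cells split the 10 genes. Prss35 was the only gene at least 2-fold higher (1 of 10, against 4.81% of all 12929 genes), and Tmprss4 and Prss23 were at least 2-fold lower (2 of 10, against 2.86%). Tmprss4 had 3.99 FPKM at 300 and 1.59 FPKM at 600 mosmol/kg, with a log2 ratio of -1.28. Prss23, a secreted serine protease, had 3.23 and 1.35 FPKM (log2 ratio -1.19). With 1 FPKM added neither reached 2-fold. For both genes Scr_300 was the highest and Scr_600 the lowest of the 4 groups, with the knockout groups between them. Prss8 had 13.0 FPKM in both Scr groups (log2 ratio 0.0014), and St14 and Tmprss2 had log2 ratios of 0.14 and 0.10. The median log2 ratio of the 10 genes was 0.12, against -0.04 for all genes.

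In Nfat5-KO cells the same step in osmolality left Tmprss4 at 1.90 and 1.84 FPKM and Prss23 at 2.44 and 2.11 FPKM. The only gene of the 10 at least 2-fold higher in Nfat5-KO_600 than in Nfat5-KO_300 was Prss35 (6.25% of all 12982 genes were), and 0 of 10 were at least 2-fold lower (4.11% of all genes were). Prss22, a tryptase of airway and other epithelia, came closest to 2-fold lower, from 15.9 FPKM under isotonic to 9.75 FPKM under hypertonic conditions (log2 ratio -0.70). In Scr cells its values were 14.6 and 11.7 FPKM, so that it was lower at 600 mosmol/kg in both genotypes. Tmprss2 had 9.26 and 14.1 FPKM (log2 ratio 0.61) and Prss8 12.4 and 18.1 FPKM (0.54). The median log2 ratio of the 10 genes was 0.23, against -0.04 for all genes.

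**Figure D2:**
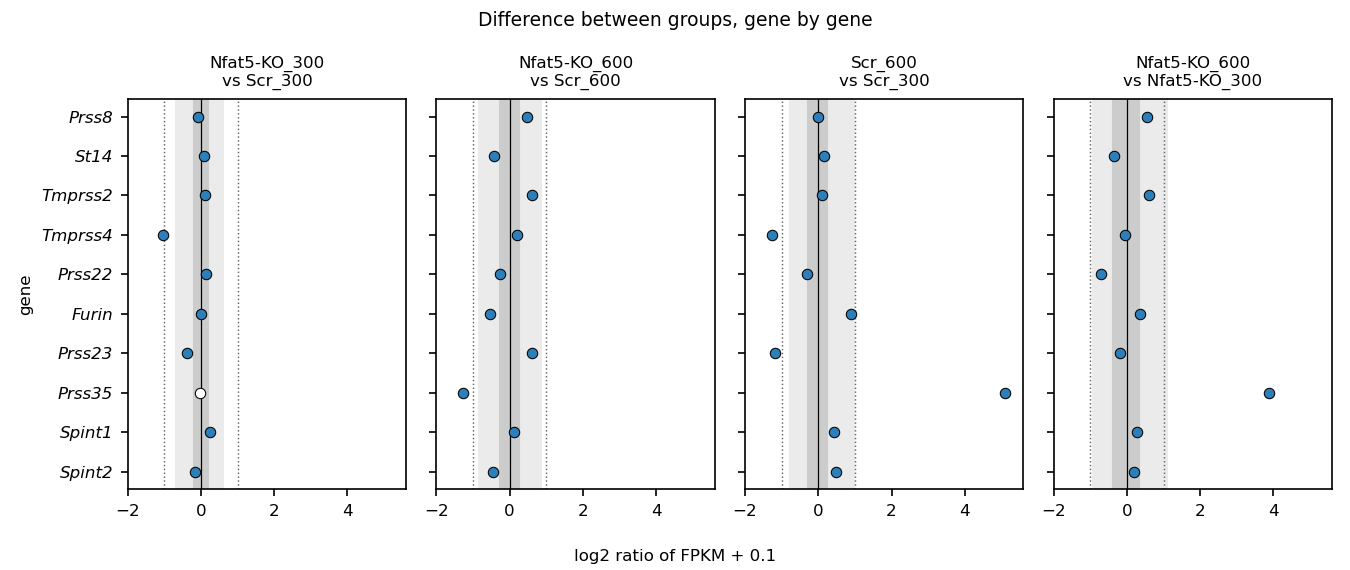
Log2 ratio of FPKM + 0.1 for each of the 10 genes in the 4 comparisons. Dark and light grey bands hold the central 50% and 90% of all genes compared, dotted lines mark 2-fold, and the open point is Prss35 where it was below 0.5 FPKM in both groups. Tmprss4 lies past 2-fold at 300 mosmol/kg, Prss35 in the 3 other comparisons, and Tmprss4 and Prss23 in Scr cells.

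The response to the medium was then compared between the genotypes, as the log2 ratio in Nfat5-KO cells minus that in Scr cells. This difference was at least 1 for 1 of the 10 genes, Tmprss4 at 1.23, against 3.88% of 13414 genes, and Prss23 lay just short of it at 0.99. It was -1 or less for 1 gene, Prss35 at -1.22, against 3.16% of the genes. Prss8 (0.54) and Tmprss2 (0.51) had a positive difference, and Furin (-0.53), St14 (-0.51), Prss22 (-0.39), Spint2 (-0.30) and Spint1 (-0.14) a negative one. With 1 FPKM added neither Tmprss4 (0.92) nor Prss35 (-0.93) reached 2-fold, while Prss23 passed it with 0.01 FPKM added (1.04) and with column-sum scaling (1.10). The difference between the responses was not tested, because each response is a single value. For Tmprss4 it shares the Scr_300 value (3.99 FPKM) with the isotonic genotype difference and the Scr medium difference. The other groups had 1.59 to 1.90 FPKM, so these differences of Tmprss4 are not separate observations.

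**Figure D3:**
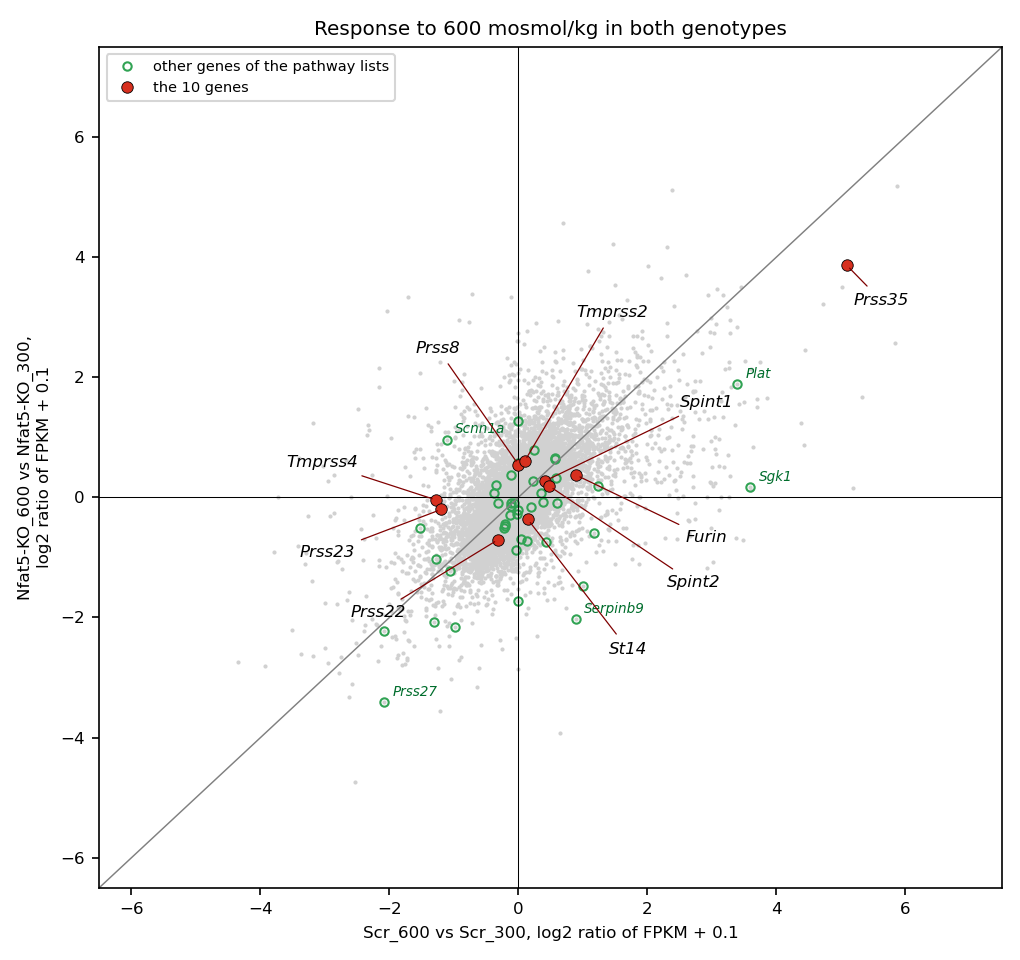
Log2 ratio of FPKM + 0.1 between 600 and 300 mosmol/kg in Scr (horizontal) and Nfat5-KO (vertical) cells, for the 10 genes (red), the other listed pathway genes (green rings) and all 13414 genes that reached 0.5 FPKM in some group (grey). Genes on the diagonal had equal responses. Prss35 (5.09 and 3.87) lies far to the upper right, and Tmprss4 (-1.28 and -0.04) and Prss23 (-1.19 and -0.20) lie left of the centre near the horizontal axis.

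Both Kunitz inhibitors were higher at 600 than at 300 mosmol/kg in each genotype, by less than 2-fold. Spint1 had 33.4 FPKM in Scr_300, 44.7 in Scr_600, 39.8 in Nfat5-KO_300 and 48.2 in Nfat5-KO_600. The log2 ratio of the media was 0.42 for the Scr and 0.28 for the Nfat5-KO genotype. For Spint2 it was 0.48 and 0.19, and at 600 mosmol/kg Spint2 was 1.37-fold lower without Nfat5. The Spint2 to Spint1 ratio was 2.05 and 2.14 in the Scr groups and 1.54 and 1.45 in the Nfat5-KO groups.

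The summed level of the 5 epithelial proteases (Prss8, St14, Tmprss2, Tmprss4 and Prss22) varied little, from 78.6 FPKM in Nfat5-KO_600 to 84.3 FPKM in Nfat5-KO_300. The summed level of the 2 inhibitors was 101.7 FPKM in Scr_300, 140.2 in Scr_600, 101 in Nfat5-KO_300 and 118 in Nfat5-KO_600. The ratio of inhibitor to protease transcripts was 1.24 in Scr_300 and 1.71 in Scr_600, and 1.20 in Nfat5-KO_300 and 1.501 in Nfat5-KO_600. It was thus higher in the hypertonic group of each genotype. A ratio within a group does not depend on how the groups were scaled, whereas the order of the groups by protease sum does. With Prss8 and St14 as the only proteases it was 1.85, 2.36, 1.77 and 2.23 in the same order. St14 made up 44.3% of the protease sum in Nfat5-KO_600 and 51.1% to 56.6% in the other groups. These are transcript levels, and protein or protease activity was not measured.

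**Figure D4:**
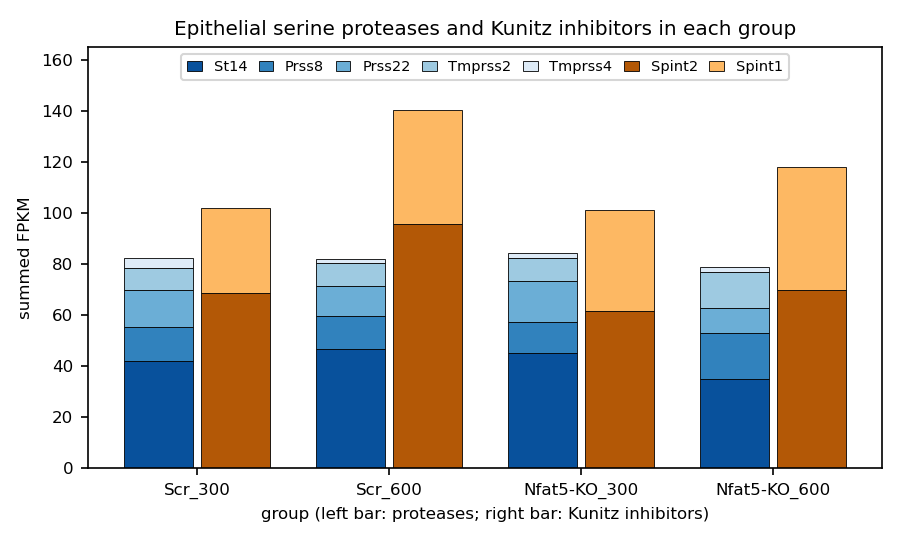
Summed FPKM of the 5 epithelial serine proteases (left bars, blue) and the 2 Kunitz inhibitors (right bars, orange) in each group, stacked by gene. The protease bars stay between 78.6 and 84.3 FPKM, while the inhibitor bars are 101.7 and 140.2 FPKM in Scr cells and 101 and 118 FPKM in Nfat5-KO cells.

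Among the targets of these proteases and related surface proteins, 14 of 19 listed genes reached 0.5 FPKM in some group. The beta and gamma subunits of ENaC were not among them, with at most 0.173 FPKM for Scnn1b and 0.0883 FPKM for Scnn1g. The alpha subunit Scnn1a had 2.95 FPKM in Scr_300, 1.31 in Scr_600, 3.56 in Nfat5-KO_300 and 7.03 in Nfat5-KO_600. The log2 ratio of the genotypes at 600 mosmol/kg was 2.33, and that of the media in Scr cells was -1.11. Sgk1, a kinase that raises ENaC at the surface, went from 0.262 to 4.28 FPKM between the Scr media but had 0.444 and 0.513 FPKM in the Nfat5-KO groups. Epcam, a matriptase target, was highly expressed, with 211 to 304 FPKM. The tight junction gene Cldn4 had 148 FPKM in hypertonic Scr cells and 42.5 FPKM in hypertonic Nfat5-KO cells (log2 ratio -1.80). Between the hypertonic groups 1 of 14 listed genes was at least 2-fold higher (3.76% of all genes were) and 3 were lower without Nfat5 (3.68%). Between the isotonic groups 0 of 13 differed by 2-fold, against 1.73% (higher) and 2.44% (lower) of all genes. Between the media 2 of 14 were higher and 1 lower at 600 mosmol/kg in Scr cells (4.81% and 2.86% of all genes), and 0 were higher and 1 lower in Nfat5-KO cells (6.25% and 4.11%).

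Most other trypsin-like proteases were hardly expressed, and 6 of 35 listed genes reached 0.5 FPKM in a group. Prss27, a membrane-anchored protease, lies 40043 bases from Prss22 on chromosome 17 as its nearest protein-coding gene toward higher coordinates. It had 4.53 FPKM in Scr_300, 0.993 in Scr_600, 4.06 in Nfat5-KO_300 and 0.293 in Nfat5-KO_600, and was at least 2-fold lower at 600 mosmol/kg in both genotypes (log2 ratios -2.08 and -3.41). The secreted protease Htra1 had 17.5 FPKM in Scr_300 but 47.4 FPKM without Nfat5 (log2 ratio 1.44). Prss27 and Htra1 were the listed proteases of this kind that differed by 2-fold in any comparison. Between the isotonic groups 1 of 6 was higher and 0 lower without Nfat5, against 1.73% and 2.44% of all genes. Between the hypertonic groups 0 of 6 were higher and 1 lower (3.76% and 3.68%). At 600 mosmol/kg 0 of 6 were higher and 1 was lower in each genotype. The shares of all genes were 4.81% and 2.86% in Scr cells, and 6.25% and 4.11% in Nfat5-KO cells. Of the other proprotein convertases, 4 of 8 reached 0.5 FPKM and 0 of these differed by 2-fold in any comparison. Among all genes, 1.73% to 6.25% were at least 2-fold higher or lower, by comparison and direction. The share of all genes that differed in any comparison was not calculated, and 0 of 4 does not set the convertases apart from other genes. Mbtps1, which cuts membrane-bound transcription factors in the Golgi, had 8.83 to 11.0 FPKM.

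Among 28 further serine protease inhibitors and related genes, 13 reached 0.5 FPKM. In Nfat5-KO_600 against Nfat5-KO_300, 1 of 12 was at least 2-fold higher and 4 were lower, against 6.25% and 4.11% of all genes. In Scr_600 against Scr_300, 2 of 12 were higher and 3 lower, against 4.81% and 2.86%. Between the genotypes 3 of 12 were higher and 1 lower in Nfat5-KO_300, against 1.73% and 2.44%, and 2 of 13 were higher and 2 lower in Nfat5-KO_600, against 3.76% and 3.68%. Serpinb9, an inhibitor of granzyme B, had 19.5 FPKM in Nfat5-KO_300 and 6.72 in Scr_300, but 4.70 in Nfat5-KO_600 and 12.5 in Scr_600, so that the order of the genotypes was opposite in the 2 media. Aplp2 and Wfdc2, abundant genes of this list, had 110.3 to 122 FPKM and 546 to 916 FPKM.

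Of the 10 genes listed for the plasminogen system, 7 reached 0.5 FPKM. At 600 mosmol/kg 2 were at least 2-fold higher and 2 lower in Scr cells (4.81% and 2.86% of all genes), and 1 was higher and 3 were lower in Nfat5-KO cells (6.25% and 4.11%). Plau, the urokinase that can also cut the gamma subunit of ENaC through plasmin, had 122 FPKM in Scr_300, 61.4 in Scr_600, 149 in Nfat5-KO_300 and 33.3 in Nfat5-KO_600. It was at least 2-fold lower at 600 mosmol/kg in Nfat5-KO cells (log2 ratio -2.16) and just short of that in Scr cells (-0.99). S100a10 and Anxa2, which together bind plasminogen at the surface, were at least 2-fold lower at 600 mosmol/kg in both genotypes. The other activator, Plat, went the opposite way, from 0.535 to 6.57 FPKM between the Scr media (log2 ratio 3.39) and from 0.533 to 2.25 FPKM between the Nfat5-KO media (1.89). Plat thus had the same order of groups as Prss35, with Scr_600 highest and Nfat5-KO_600 next.

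The genes most like the 3 members with the widest range were found by the Euclidean distance of centred log2(FPKM + 0.1) values over the 4 groups, among the 11921 genes that reached 1 FPKM in some group. For Prss35 they were Inmt (distance 1.23), Gm25535 (1.39) and Bsnd (1.42). Inmt had 7.54 FPKM in Scr_300, 249 in Scr_600, 3.49 in Nfat5-KO_300 and 40.8 in Nfat5-KO_600. Unlike Prss35, the other genes near it differed little between the hypertonic groups. Gm25535 had 9.29 FPKM in Scr_600 and 9.99 in Nfat5-KO_600, and Bsnd had 22.1 and 20.8 FPKM. For Tmprss4 the nearest genes were Selenbp1 (0.18), Clu (0.20) and Gchfr (0.21), and for Prss23 Snord70 (0.08), Gm12571 (0.13) and Ctsl (0.19). Ctsl, which encodes the lysosomal protease cathepsin L, had 40.3 FPKM in Scr_300, 19.8 in Scr_600, 35.6 in Nfat5-KO_300 and 31.9 in Nfat5-KO_600. These likenesses rest on 4 values per gene and are a description only.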

How the data were processed

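Libraries were prepared from poly-A RNA and sequenced as paired ends. The authors used HISAT2 for mapping (GRCm38/mm10) and HTSeq for counting, then scaled to gene length and depth. The values they deposited are named FPKM, 1 per gene and group, while their methods describe RPKM. Versions, annotation release and the way libraries were combined are not given in the sources used here. Of 54839 rows, 2436 without a value were left out, as were 311 exact duplicates and 37 symbols with several different rows, so that 52015 genes were used.

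Log2 ratios of FPKM + 0.1 were taken for genes that reached 0.5 FPKM in 1 or both groups of a comparison. No test was run and no interval was calculated, since depth and spread are unknown. Fits that leave out libraries or pair them need values per library and were not run. The steps were tested on simulated data. The members and gene lists were chosen with earlier results of these data known. All members were named, as were listed genes at least 2-fold different in any comparison, up to 2 abundant genes of each list, cell type markers and the nearest genes in pattern, except that a few listed genes are not reported here. The neighbouring genes were chosen after their values were seen. Positions are from GENCODE M21 (GRCm38), where all 10 genes were found, and promoters from RefSeq (GRCm38.p6). Whether counting used strand is not given, so reads of Prss8 and Kat8, which overlap by 122 bases on opposite strands, may not be separated. Tools were Python 3.11.15, numpy 2.4.6 and matplotlib 3.10.9. Alternatives were pseudocounts of 1 and 0.01 FPKM, leaving out the filter, a mean over the groups of 1 FPKM or more, a 1.5-fold threshold and other scalings. For the difference of the responses they were chosen after seeing the data.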

Additional observations from a re-analysis of the deposited data

How the results depend on the processing

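No paired analysis was possible because each group has 1 value, and for the same reason no library could be left out. With a pseudocount of 1 FPKM, the number of the genes at least 2-fold different was 0 in Nfat5-KO_300 against Scr_300 (1.06% of all genes). It was 0 in Nfat5-KO_600 against Scr_600 (2.59%) and 1 (Prss35) in Scr_600 against Scr_300 (2.90%). Adding 1 FPKM shrinks the ratios of low genes such as Tmprss4 and Prss23. The number with a response difference of 2-fold or more was then 0, in place of 2, an alternative chosen after seeing the data. The share of all genes with such a response difference at this setting was not calculated, so this count has no baseline. At a threshold of 1.5-fold, 3 of 10 genes differed in Nfat5-KO_600 against Scr_600 and 3 of 10 in Nfat5-KO_600 against Nfat5-KO_300. Of all genes, 19.3% and 27.9% passed there. In Scr_600 against Scr_300, 4 of 10 passed (19.4% of all genes), and in Nfat5-KO_300 against Scr_300, 1 of 9 (11.5%). The same genes passed 2-fold in all 4 comparisons with a pseudocount of 0.01, without a filter, with a mean of at least 1 FPKM and with median-of-ratios factors. Dividing by the column sum moved the median of all genes from -0.04 to 0.20 in Nfat5-KO_600 against Nfat5-KO_300 and from -0.02 to 0.11 in Nfat5-KO_600 against Scr_600. The share of higher genes among those 2-fold different then went from 60.3% to 82.8% there and from 50.5% to 61.6% in Nfat5-KO_600 against Scr_600. Under this scaling Furin also passed 2-fold in Scr cells, and small differences changed sign. Tmprss4 went from -0.04 to 0.19 and Prss23 from -0.20 to 0.03 in Nfat5-KO cells, and the median of the 10 genes went from -0.08 to 0.05 at 600 mosmol/kg. The direction of every difference of 2-fold or more among the 10 genes was the same in all alternatives run.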

Other observations

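The nearest protein-coding genes of the members differed in how far they shared a member's pattern. Fes lies 638 bases from Furin on chromosome 7, and had 0.376 FPKM in Scr_300, 0.724 in Scr_600, 0.417 in Nfat5-KO_300 and 0.608 in Nfat5-KO_600. Like Furin it was highest in Scr_600 and next highest in Nfat5-KO_600, at a much lower level. Blm, 49296 bases from Furin on the other side, did not share this order. It had 5.27 FPKM in Scr_300 and 4.61 in Scr_600, and log2 ratios of the media of -0.19 in Scr and -0.33 in Nfat5-KO cells. Prss35 has Snap91 at 7479 bases, listed at 0 in every group, and Me1 (malic enzyme) at 47695 bases on the other side. Me1 had 27.1 FPKM in Scr_300, 57.2 in Scr_600, 32.5 in Nfat5-KO_300 and 46.7 in Nfat5-KO_600, a log2 ratio of the media of 1.07 in Scr and 0.52 in Nfat5-KO cells. Both neighbours of Tmprss4, Scn4b and Il10ra, had at most 0.0074 FPKM.

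The principal cell markers did not all differ between the genotypes in the same direction. Gata3 had 3.41 FPKM in Scr_300, 4.33 in Scr_600, 11.8 in Nfat5-KO_300 and 30.0 in Nfat5-KO_600, and Hsd11b2, which protects the mineralocorticoid receptor from glucocorticoids, had 0.383, 0.655, 1.95 and 6.18 FPKM in the same order. The summed level of the 13 principal cell markers was 50.7, 34.8, 69.6 and 100.4 FPKM, of which Tfcp2l1 made 40.6, 25.1, 48.9 and 53.4 FPKM. Kcnj1 went the other way, with 0.725 FPKM in Scr_600, 0.0740 in Nfat5-KO_600 and 0 in both isotonic groups. The intercalated cell marker Atp6v1b1 was also lower in the Nfat5-KO groups, with 0.973, 0.542, 0.438 and 0.149 FPKM in the order above. Prss8, Tmprss2 and the inhibitor Spint1 were the members with their highest level in Nfat5-KO_600. Scnn1a, itself among the 13 markers, was also highest there. The summed proximal tubule markers were 0.0518 to 1.24 FPKM with the highest value in Nfat5-KO_600, mostly from Lrp2 (1.07 FPKM). The part of these markers in the protease values was not tested.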
